A study of Mus musculus with 3 samples.

Results

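Granulosa cells (GCs), the follicle cells that surround the oocyte, were compared between the cells of barcode set 2 and those of barcode set 1 in a single-cell RNA-seq table of mouse ovary. The cells were chosen by measured values of 5 genes. GCs were taken as cells with a value of at least 2 for *Inha*, the inhibin alpha subunit, below 2 for *Cyp17a1* (theca) and for *Dcn* (stroma), and 0 for *Ptprc* (leukocytes) and for *Pecam1* (endothelium), on the deposited scale, the natural log of 1 plus unique molecular identifiers (UMIs) per 10000. The gate kept 8592 of the 31776 cells of the table for this comparison, 4250 of the 10384 cells of set 1 and 4342 of the 9917 cells of set 2. By their labels, the 3 libraries, prepared with 10x Genomics chemistry from mouse ovary, stand for 0, 1 and 6 h past an injection of human chorionic gonadotropin (hCG), with 1 library for each time. No other treatment, strain or age is given in the labels, and the study's text describes ovaries of Kunming mice, an outbred stock, aged 21 days taken when 48 h had passed since a dose of the FSH-like hormone PMSG, which matches the library at 0 h. Whether the mice killed 1 and 6 h after hCG had received PMSG as well is not stated in the sources used here. Barcodes end in 1, 2 or 3, and no source says which ending is which library, so the sets carry no time below. With 1 library in each set there is no replicate, no test was made, and every interval, given in parentheses, is an exact 95% interval that covers counting error only.

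In the follicle of a primed mouse, FSH drives GCs to divide and to make estradiol through aromatase, and cells of the outer, mural layers gain the LH receptor. LH, or hCG in its place, then acts through cyclic AMP on these mural cells, which release the EGF-like ligands amphiregulin, epiregulin and betacellulin. The ligands act on EGF receptors of GCs and cumulus cells, and prostaglandin synthesis, the progesterone receptor, the cumulus matrix and the switch towards progesterone follow. This is textbook background, and it does not tell which time either set was taken.

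The gated cells had a median of 6119.5 UMIs in set 1 and 6694.5 UMIs in set 2, with 33030500 and 33247425 UMIs summed over all of them. When each cell was thinned to 3000 UMIs, leaving out 313 and 314 shallower cells, the median number of genes per cell came to 1552, 1355 and 1522 in sets 1, 2 and 3. *Inhba* and *Hsd17b1*, 2 of the GC markers that the gate did not use, were higher in both sets than in cells gated on *Dcn*. *Inhba*, which encodes the subunit of activin A, was at 30.8 and 35.7 UMIs per 10000 in sets 1 and 2, against 0.6599 and 1.03 in cells gated on *Dcn*. *Hsd17b1*, which makes estradiol from estrone, was at 7.86 and 5.78, against 0.222 and 0.264 in the *Dcn* gate. Of the 12 GC markers tested, 1 was at least 2-fold higher in set 2 (*Cyp19a1*, ratio 2.38), 1 was at least 2-fold lower (*Foxl2*, 0.354), and 10 were in between. Among all genes tested 5.7% were higher and 17.6% lower by these limits, which the marker counts that follow stand against. Transcripts of other cells were present at low levels. The summed level of 5 theca markers was 5.01 UMIs per 10000 in set 1 and 2.08 in set 2, and all 3 that could be tested were lower in set 2, *Aldh1a1* (ratio 0.388), *Insl3* (0.0727, over other settings 0.0398 to 0.137) and *Ptch1* (0.424), of which 1 call was left after centring. The summed levels in sets 1 and 2 were 1.95 and 1.58 for 6 stroma markers, 1.38 and 2.32 for 6 markers of smooth muscle and pericytes, 0.190 and 0.328 for 6 endothelial markers, 0.109 and 0.184 for 7 immune markers, and 0.0884 and 0.0346 for 5 erythroid markers. *Pecam1* and *Ptprc* were at 0 by the gate. Of 4 genes tested in each of 3 of these lists, 2 were higher in set 2, *Kdr* (3.12) and *Cldn5* (2.54, over other settings 1.97 to 4.54) of endothelium, *Cd3e* (9.67, 7.75 to 17.7) and *C1qa* (2.44, 2.03 to 4.46) of immune cells, and *Rgs5* (3.06) and *Tagln* (2.22) of pericytes and smooth muscle. No stroma marker was called and both erythroid markers tested were lower. The part of these transcripts in the results below was not tested. Set 1 and set 2 shared 27 barcode sequences, and leaving out cells with a barcode seen in more than 1 set gave 699 higher and 2156 lower genes, against the 699 and 2154 below.

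A gene's level is its UMIs summed over the gated cells per 10000 summed UMIs, and its ratio is the level in set 2 over that in set 1. A gene was tested when it had at least 100 UMIs over both sets and was none of the 5 gate genes. A gene nearly silent in set 1 can thus pass this filter through its UMIs in set 2. Among the genes below this holds for *Epgn*, *Fosl1*, *Snap25*, *Ptgs2*, *Tnfaip6*, *Ptx3* and *Has2*, among others. The gene lists were also chosen with earlier results of these data known. The counts per list below therefore describe their members and give no independent support. Of the 12255 genes tested, 699 (5.7%) had a ratio of 2 or more and 2154 (17.6%) had a ratio of 0.5 or less, and these are called higher and lower below. Most of the lower genes were of low level. The median log2 ratio of all genes was -0.45, and it was -0.63 for genes at up to 0.1 UMIs per 10000, -0.39 for those between 0.3 and 1, -0.03 between 3 and 10, and 0.16 between 10 and 30. Among the 1906 genes with at least 1 UMI per 10000 in the higher set, 173 were higher (9.08%) and 77 lower (4.04%). Of all genes called, 24.5% were higher, and when the ratios were centred on the median gene, 62.2% were, with 1149 (9.38%) higher and 698 (5.7%) lower. A median that runs downward with falling level was also found in cells gated on *Cyp17a1* (-0.40 over all genes) and less in the *Dcn* gate (-0.17) and the *Pecam1* gate (-0.07), as the plot of medians by level shows. The lower calls of low-level genes therefore carry this shift, and ratios near 0.73, the ratio of the median gene, are at the middle of all genes. The cause of the shift was not tested. Single ratios also moved with the way the level was computed, for many genes beyond the counting interval. Under 8 other settings, namely the mean over cells, totals without the top genes, a looser or stricter gate, thinning, and leaving out deep, mitotic or shared-barcode cells, the ratio of 41 of the 137 named genes called moved by over 1.5 times and 24 lost their call in at least 1 setting. For genes whose ratio moved that far, the lowest and highest ratio over these settings, leaving out ratios against a count of 0, is given as its range. Among the genes named here, the calls of *Adamts5*, *Aldh1a1*, *Apln*, *Bcl2l1*, *Cdkn2d*, *Cited2*, *Cldn5*, *Cxcl10*, *Dusp10*, *Egr1*, *Esr1*, *Fgf2*, *Gja4*, *Lss*, *Mcl1*, *Mvd*, *Neat1*, *Notch3*, *Pik3ip1*, *Ptch1*, *Ptges*, *Scarb1* and *Tgfbr1* did not hold in every setting.

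**Figure D1:**
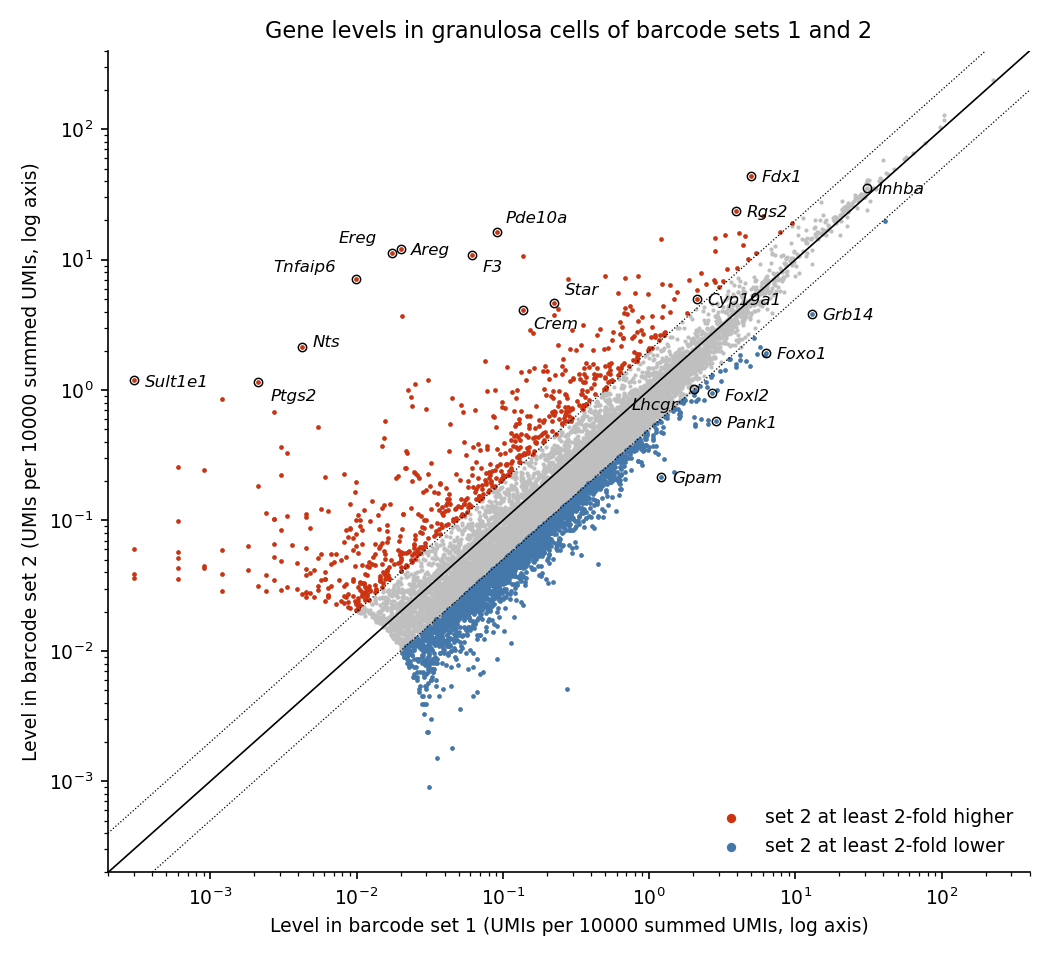
Each point is a gene tested, with its level in GCs of barcode set 1 (x axis) and set 2 (y axis) in UMIs per 10000 summed UMIs, both on log axes; genes at 0 in either set are left out, the solid line marks equal levels and the dotted lines a 2-fold difference. *Areg*, *Ereg*, *Tnfaip6*, *F3* and *Pde10a* are at 7 to 16 UMIs per 10000 in set 2 and below 0.1 in set 1, and the blue cloud of lower genes lies mostly below 1 UMI per 10000.

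**Figure D2:**
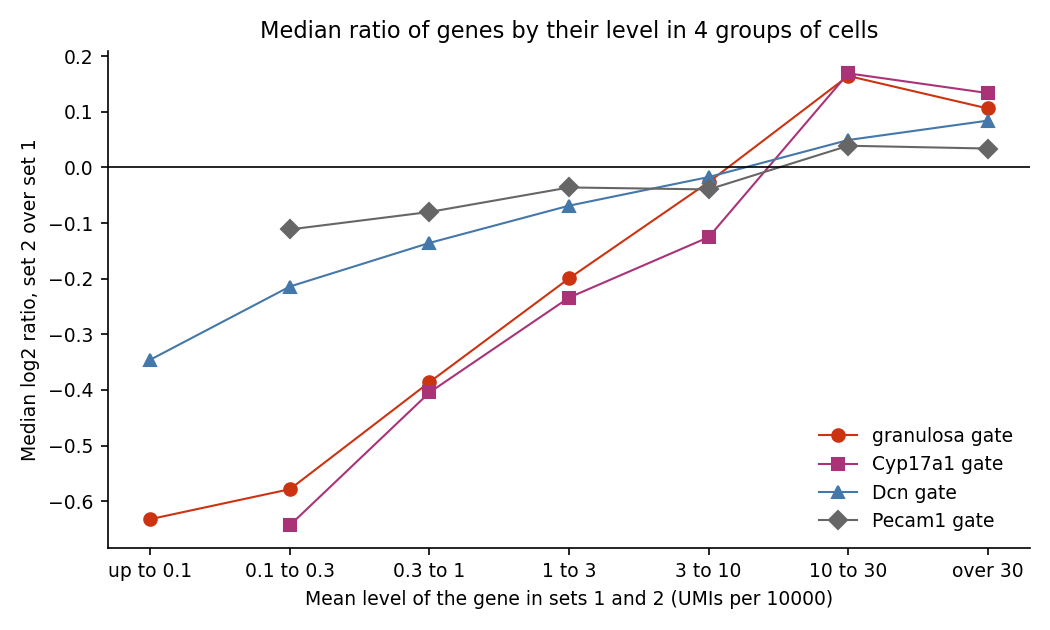
The median log2 ratio of genes, set 2 over set 1, is plotted by the mean level of the gene in both sets for 4 groups of cells. In the granulosa gate the median goes from -0.63 below 0.1 UMIs per 10000 to 0.16 between 10 and 30, and the *Cyp17a1* gate runs close to it.

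The 15 genes of highest ratio among those at 1 UMI per 10000 or more were nearly silent in set 1. *Sult1e1*, which encodes estrogen sulfotransferase, had 1 UMI in the 4250 cells of set 1 and 3954 UMIs in the 4342 cells of set 2, a ratio of 3928 (705 to 155194). *Tnfaip6*, whose product links hyaluronan in the cumulus matrix, was at 0.00999, 7.17 and 2.09 UMIs per 10000 in sets 1, 2 and 3, with a ratio of 717 (511 to 1042) between sets 2 and 1. *Ereg* (641), *Areg* (605) and *Btc* (38.5) are EGF-like ligands, *Ptgs2* (540.0) is the inducible cyclooxygenase, *Nts* (503) encodes neurotensin, and *F3* (177) is tissue factor, which starts blood clotting. *Pde10a* (180.3) encodes a phosphodiesterase that degrades cyclic nucleotides, *Crem* (29.7) a cyclic AMP-responsive transcription factor, *Camk2n2* (44.1) an inhibitor of the kinase CaMKII, *Srxn1* (179.7) the antioxidant enzyme sulfiredoxin and *Ell2* (22.1) an elongation factor of RNA polymerase II. *Gm13889* (77.1) and *Osgin2* (25.7) complete the 15. Several of these genes were low in set 3 as well as in set 1, and others were not. *F3* was at 0.0615, 10.9 and 0.169 UMIs per 10000 in sets 1, 2 and 3, and *Srxn1* at 0.0206, 3.6995 and 0.108, whereas *Nts* was at 0.00424, 2.13 and 27.5 and *Sult1e1* at 0.000303, 1.19 and 20.2, highest in set 3. The ranges of ratios were 3372 to 7229 for *Sult1e1*, 303 to 997 for *Tnfaip6*, 337 to 5705 for *Nts*, 132 to 272 for *F3*, 123 to 321 for *Srxn1* and 46.2 to 101 for *Gm13889*, so the order of these genes by ratio is not fixed.

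The 15 genes of lowest ratio differed by less, with ratios from 0.160 to 0.311. *Grb14*, an adaptor that binds and restrains the insulin receptor, had the highest level of them and was at 13.001, 3.82 and 4.84 UMIs per 10000 in sets 1, 2 and 3, with a ratio of 0.294 (0.288 to 0.2998). *Foxo1*, a transcription factor that insulin and FSH signalling hold out of the nucleus, was at 6.33, 1.93 and 1.94 (ratio 0.305 (0.296 to 0.313)). *Txnip*, which binds thioredoxin and limits glucose uptake, was at 6.16, 1.86 and 2.22 (ratio 0.302 (0.293 to 0.311)). *Gpam* (0.178) starts glycerolipid synthesis, *Pank1* (0.1998) starts coenzyme A synthesis and *Sdhaf4* (0.283) helps to assemble succinate dehydrogenase. *Resf1* (0.218) takes part in the silencing of retroelements, *Tmem86a* (0.234) acts on lysoplasmalogens, and *Tdrd5* (0.234) is a Tudor domain protein best known from germ cells. The other 6 were *1110032F04Rik* (0.1598), *Susd3* (0.2596), *Unc119* (0.267), *Tom1l1* (0.269), *Adck5* (0.306) and *Fam53a* (0.311). In set 3 most of these genes were nearer to set 2, but *Susd3* was at 2.05, 0.533 and 4.92 UMIs per 10000 in sets 1, 2 and 3 and *Tmem86a* at 2.52, 0.5895 and 2.45. After centring on the median gene the ratios of *Foxo1* and *Grb14* were 0.417 and 0.402, still below 0.5.

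Of the 9 EGF-like ligand genes, 7 could be tested and 4 were higher in set 2, against 5.7% of all genes, and none was lower. *Areg* was at 0.01998, 12.1 and 0.126 UMIs per 10000 in sets 1, 2 and 3, with a ratio of 605 (476 to 783). *Ereg* was at 0.0176, 11.3 and 0.372 (ratio 641 (496 to 844)), with a range of 358 to 1490.2. Both were thus low in set 1, high in set 2 and low in set 3. *Btc* was at 0.0309, 1.19 and 1.37 (ratio 38.5 (31.6 to 47.3)), about as high in set 3 as in set 2. *Epgn*, which encodes epigen, had 2 UMIs in set 1 and 856 in set 2, a ratio of 425 (117 to 3517). *Hbegf* (0.744), *Tgfa* (0.816) and *Nrg1* (1.23) were not called, nor were the receptor genes *Egfr* (1.31) and *Erbb2* (0.647).

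The 4 higher ligand genes are neighbours on chromosome 5 (GRCm38, GENCODE M21). *Epgn* lies at chr5:91027464-91035215, *Ereg* at chr5:91074622-91093646 and *Areg* at chr5:91139599-91148432, all on the plus strand, and *Btc* at chr5:91357261-91402994 on the minus strand, a stretch of 375.5 kb in all. The table holds 2 more genes of this stretch, looked up after the ligand values were seen. *Gm19619*, between *Areg* and *Btc*, had 15 UMIs in set 1 and 205 in set 2 (ratio 13.6, 8.04 to 24.7). *Gm19610*, whose end overlaps the start of *Ereg*, had 7 and 69 UMIs, too few for the filter. Of the 5 genes tested in the stretch, 4 are the ligand genes it was drawn around, which were already called higher. *Gm19619* was the other gene tested. Both it and *Epgn* passed the filter mainly through their UMIs in set 2. The stretch therefore gives no share of higher genes that can be set against that of all genes. The nearest genes of the table outside it were not called, *Mthfd2l* on one side with a ratio of 0.923 (0.859 to 0.991) and *Parm1* on the other with 1.66 (1.47 to 1.87). The next gene past *Mthfd2l*, the chemokine gene *Cxcl2* at chr5:90903871-90905938, was higher (5.1047, 4.2019 to 6.24), so the higher calls did not end with the stretch.

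Of 16 tested genes of cyclic AMP signalling and its feedback, 8 were higher and none lower, against 5.7% and 17.6% of all genes, with a median log2 ratio of 0.96. *Pde10a* was at 0.0908, 16.4 and 0.339 UMIs per 10000 in sets 1, 2 and 3 (ratio 180.3 (161 to 203)). *Pde4d* (27.7, range 24.02 to 45.2) and *Pde4b* (9.43), which encode phosphodiesterases that degrade cyclic AMP, were higher too, while *Pde7b* (0.724), *Pde8a* (1.16) and *Pde3a* (1.03) were not called. *Crem* was at 0.138, 4.0996 and 0.314 (ratio 29.7 (27.05 to 32.7)), and the table does not separate its short repressor form. *Rgs2*, which shortens G protein signals, was at 3.91, 23.7 and 10.5 (ratio 6.07 (5.96 to 6.18)) and had a UMI in 96.4% of set 2 cells, against 65.95% of set 1 cells. *Cebpb*, a transcription factor that GCs need for luteinization, was at 3.297, 15.6 and 6.73 (ratio 4.72 (4.62 to 4.82)). *Sik1* (9.32), a kinase gene switched on by cyclic AMP, and *Per1* (2.37) were higher as well. *Prkar2b*, the regulatory subunit of protein kinase A with the highest level in the list, was at 22.4, 18.2 and 4.04 UMIs per 10000 and was not called.

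Promoter sequences were read for the genes above because many targets of cyclic AMP carry a cyclic AMP response element (CRE), whose full form is TGACGTCA and whose short form, contained in the full one, is TGACG. Windows run from 250 bases before the RefSeq start to 50 bases after it (GRCm38.p6), and matches on both strands were counted. Among the higher genes at 1 UMI per 10000 or more, 134 of 173 had a window, of which 8 (5.97%) held a full CRE, 64 (47.8%) a short CRE and 14 (10.4%) an AP-1 match (TGANTCA). Among all 1514 genes at that level with a window the shares were 4.29%, 43.3% and 5.94%, and among the 55 lower genes with a window 1.82%, 29.1% and 5.45%. In all 27025 windows of the RefSeq table the shares were 2.03%, 23.0% and 8.97%. Of the higher genes in the fixed lists or among the 15 highest, 6 held a full CRE in a window that is printed here, 5′ to 3′ on the strand of the gene, with the full CRE in capitals. They are the EGF-like ligand gene *Areg*, the EGF receptor feedback inhibitor *Errfi1*, the elongation factor *Ell2*, the small Maf factor *Maff*, the antiproliferative gene *Btg2* and the MAPK phosphatase gene *Dusp8*, which holds 2.
Areg: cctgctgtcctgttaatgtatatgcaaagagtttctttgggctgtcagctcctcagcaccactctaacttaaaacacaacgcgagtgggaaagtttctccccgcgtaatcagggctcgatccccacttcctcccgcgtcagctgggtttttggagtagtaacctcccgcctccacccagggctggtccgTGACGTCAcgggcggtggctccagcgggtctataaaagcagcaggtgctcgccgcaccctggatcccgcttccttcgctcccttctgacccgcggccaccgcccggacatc
Errfi1: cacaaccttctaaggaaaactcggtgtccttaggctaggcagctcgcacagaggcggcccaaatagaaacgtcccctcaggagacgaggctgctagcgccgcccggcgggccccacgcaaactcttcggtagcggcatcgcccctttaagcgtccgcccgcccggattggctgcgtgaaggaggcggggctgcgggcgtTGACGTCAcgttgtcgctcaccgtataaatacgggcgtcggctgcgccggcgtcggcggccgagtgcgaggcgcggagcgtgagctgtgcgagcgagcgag
Ell2: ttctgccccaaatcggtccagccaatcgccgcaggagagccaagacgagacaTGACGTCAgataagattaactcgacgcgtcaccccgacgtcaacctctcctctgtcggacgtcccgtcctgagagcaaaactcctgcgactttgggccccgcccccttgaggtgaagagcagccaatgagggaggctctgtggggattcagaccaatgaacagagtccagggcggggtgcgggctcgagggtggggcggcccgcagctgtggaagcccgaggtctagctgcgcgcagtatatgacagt
Maff: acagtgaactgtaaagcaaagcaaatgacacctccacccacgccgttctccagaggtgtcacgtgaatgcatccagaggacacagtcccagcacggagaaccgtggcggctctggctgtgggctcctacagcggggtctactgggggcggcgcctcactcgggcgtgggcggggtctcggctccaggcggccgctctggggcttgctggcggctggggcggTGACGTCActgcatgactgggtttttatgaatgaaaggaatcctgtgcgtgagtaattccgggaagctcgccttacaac
Btg2: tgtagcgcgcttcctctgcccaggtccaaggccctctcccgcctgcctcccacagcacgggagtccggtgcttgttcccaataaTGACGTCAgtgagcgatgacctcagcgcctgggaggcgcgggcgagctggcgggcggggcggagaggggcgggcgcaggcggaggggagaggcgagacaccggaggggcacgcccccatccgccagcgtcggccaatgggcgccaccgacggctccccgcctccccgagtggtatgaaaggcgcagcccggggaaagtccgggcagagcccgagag
Dusp8: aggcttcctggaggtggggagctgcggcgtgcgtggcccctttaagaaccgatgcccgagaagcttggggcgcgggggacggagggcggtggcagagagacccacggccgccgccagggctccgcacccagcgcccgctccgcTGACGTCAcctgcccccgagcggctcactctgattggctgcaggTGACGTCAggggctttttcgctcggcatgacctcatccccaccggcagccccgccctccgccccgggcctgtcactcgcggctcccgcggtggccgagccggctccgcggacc
The windows lie at chr5:91139349-91139648 (plus strand) for *Areg*, chr4:150854820-150855119 (plus strand) for *Errfi1*, chr13:75707234-75707533 (plus strand) for *Ell2*, chr15:79347270-79347569 (plus strand) for *Maff*, chr1:134079106-134079405 (minus strand) for *Btg2* and chr7:142095235-142095534 (minus strand) for *Dusp8*. Counted from the RefSeq start, the full CRE begins at position -61 in *Areg*, -51 in *Errfi1*, -198 in *Ell2*, -29 in *Maff* and -166 in *Btg2*, and at -107 and -63 in *Dusp8*. The ratios of these genes ran from 3.92 for *Btg2* to 605 for *Areg*. A match describes the letters only.

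Immediate early genes, which cells switch on without new protein, were higher in part. Of 9 AP-1 genes tested 4 were higher and none lower (median log2 ratio 0.76), and of 16 genes of the NR4A, EGR and KLF families and related factors 9 were higher and none lower (1.07), against 5.7% and 17.6% of all genes. *Nr4a1*, an orphan nuclear receptor, was at 0.982, 5.44 and 0.6503 UMIs per 10000 in sets 1, 2 and 3 (ratio 5.54 (5.34 to 5.76)). *Nr4a2* was at 0.133, 1.39 and 0.109 (ratio 10.5 (9.48 to 11.6)) and *Nr4a3* at 0.0224, 0.998 and 0.0291 (ratio 44.5 (35.4 to 56.9)). All 3 NR4A genes were thus highest in set 2 and near their set 1 level in set 3. The range of *Nr4a3* was 34.9 to 73.8. Among the AP-1 genes, *Junb* was at 6.03, 21.5 and 7.88 (ratio 3.57 (3.52 to 3.63)), and *Atf3* (4.33), *Maff* (7.07) and *Fosl1* (49.2, from 4 UMIs in set 1, range 21.6 to 124) were higher. *Fos*, the prototype of these genes, was high in every set, at 14.3, 16.3 and 17.1, and was not called, nor were *Fosb* (1.19), *Jun* (1.41), *Jund* (1.39) and *Fosl2* (1.69). Centring on the median gene brought the AP-1 count to 5, with *Fosl2* added, against 9.38% of all genes. *Btg2* was at 4.11, 16.1 and 4.76 (ratio 3.92 (3.84 to 3.99)), *Ier3* at 0.744, 4.41 and 3.13, *Klf4* at 0.764, 2.53 and 1.66 and *Egr1* at 7.86, 16.2 and 10.5 (ratio 2.06 (2.03 to 2.09)), close to the 2-fold limit, whereas *Myc* (0.9603) was not called.

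Genes that dampen the MAPK cascade below the EGF receptor followed the same direction, with 8 of 13 tested higher and none lower (5.7% and 17.6% of all genes) and a median log2 ratio of 1.29. *Dusp8* (7.88), *Dusp4* (4.52, range 3.64 to 8.299), *Dusp2* (3.26), *Dusp5* (2.76), *Dusp10* (2.45) and *Dusp6* (2.38) encode phosphatases of MAPKs, and *Spry2* (4.41) and *Spry4* (2.57) inhibitors of receptor tyrosine kinase signals. *Dusp1* was not called (1.27), nor were *Spry1* (0.895) and the 3 Spred genes. All 8 higher members were below 1 UMI per 10000 in set 2, the highest being *Dusp5* at 0.341, 0.941 and 0.601 in sets 1, 2 and 3. Of 8 genes of growth arrest and cell cycle inhibition 3 were higher and 2 lower, against 5.7% and 17.6% of all genes. The higher ones were *Gadd45b*, at 0.685, 7.19 and 0.984 (ratio 10.5 (10.1 to 10.97), range 7.36 to 16.95), *Gadd45a*, at 0.286, 1.18 and 0.443, and the cyclin-dependent kinase inhibitor *Cdkn1a*, at 0.228, 1.303 and 0.891 (ratio 5.71 (5.28 to 6.17)). *Cdkn2c* (0.336) and *Cdkn2d* (0.487) were lower, though 1 of the 2 lower calls was lost on centring, and *Gadd45g* (1.98), *Cdkn1c* (1.37) and *Cdkn1b* (0.558) were not called.

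Of 12 heat shock and dissociation genes none was called, with a median log2 ratio of 0.35 and log2 ratios that lay between those of *Hspa1b* (ratio 0.922) and *Hsp90aa1* (1.63). After centring 3 of the 12 were higher, *Hsp90aa1*, *Hspe1* and *Hsph1*, against 9.38% of all genes. Centring applies the shift of the median gene at every level. The median log2 ratio was -0.03 for genes at levels of 3 to 10 and 0.16 at 10 to 30. The summed level of the 12 genes was 78.9 in set 1 and 101 in set 2. For members at such levels, centring overstates the difference from genes of like level. The genes of this list, which tissue dissociation can switch on, are given beside the immediate early genes, and their part in those was not tested.

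**Figure D3:**
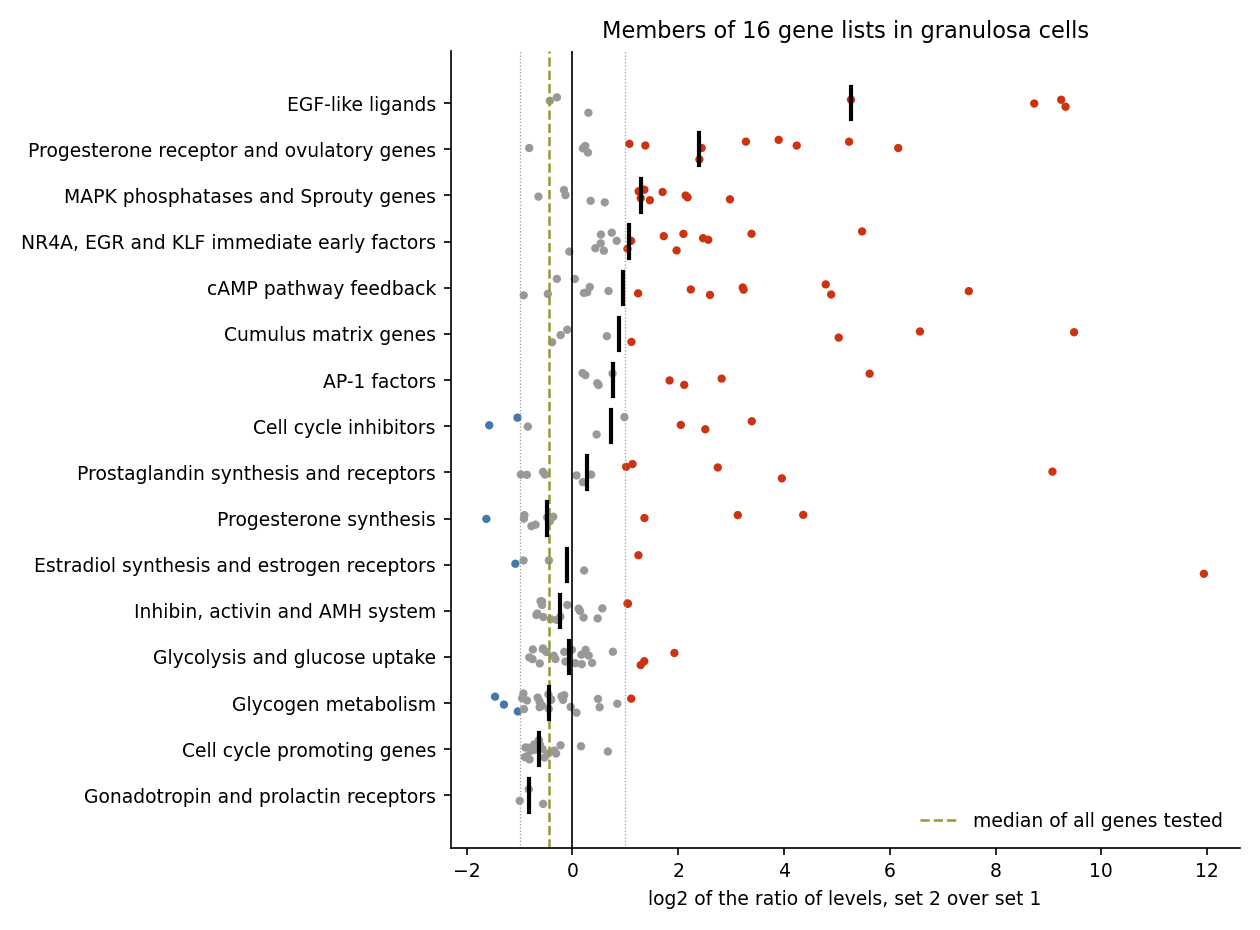
Each point is a gene of the list named at the left, placed by the log2 of its ratio of levels, set 2 over set 1 (red, ratio of 2 or more; blue, 0.5 or less; grey, in between); black bars are list medians, dotted lines a 2-fold difference and the dashed line the median of all genes tested, -0.45. Lists of EGF-like ligands, ovulatory genes and signalling feedback have medians of 0.96 or more, and those of cell cycle promoting genes and of gonadotropin and prolactin receptors -0.62 and -0.83.

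Of 13 tested genes of the progesterone receptor and its ovulatory programme, 9 were higher and none lower, against 5.7% and 17.6% of all genes, with a median log2 ratio of 2.40. *Pgr*, the progesterone receptor itself, was at 0.0236, 0.887 and 0.1304 UMIs per 10000 in sets 1, 2 and 3 (ratio 37.5 (29.99 to 47.6)). *Edn2*, which encodes endothelin 2, was at 0.0221, 0.32995 and 0.0316 (ratio 14.9 (11.8 to 19.2)), and *Adamts1*, a protease that cleaves versican, at 0.707, 3.84 and 1.904 (ratio 5.44 (5.204 to 5.69)). *Runx1* was at 0.629, 3.33 and 6.41 (ratio 5.28 (5.04 to 5.54)), while *Runx2* was not called between these sets and was at 0.272, 0.334 and 2.71. *Tnfrsf12a* (18.9), the receptor of TWEAK, *Errfi1* (9.72), *Zbtb16* (2.601), *Cited2* (2.11) and *Snap25* (71.5, from 2 UMIs in set 1) were higher as well. The levels of *Pgr* and *Edn2* were lower in sets 1 and 3 than in set 2, and those of *Runx1*, *Runx2*, *Zbtb16* and *Snap25* were highest in set 3. The ranges of ratios were 20.2 to 66.1 for *Pgr*, 10.7 to 22.97 for *Edn2*, 12.4 to 36.4 for *Tnfrsf12a* and 56.8 to 149 for *Snap25*. *Adcyap1*, the neuropeptide gene, had 0 UMIs in set 1 and 32 in set 2, too few for the filter.

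Of 12 prostaglandin genes tested 5 were higher and none lower, against 5.7% and 17.6% of all genes. *Ptgs2* was at 0.00212, 1.14 and 0.1198 UMIs per 10000 in sets 1, 2 and 3, from 7 UMIs in set 1, with a ratio of 540.0 (262 to 1344). *Ptges*, the synthase of prostaglandin E2, was at 0.823, 1.66 and 0.446 (ratio 2.02 (1.93 to 2.12)), with an interval that spans the 2-fold limit. The receptor genes *Ptger4*, at 0.0218, 0.339 and 0.0321 (ratio 15.6 (12.3 to 20.04)), and *Ptgfr*, at 0.258, 1.73 and 0.159 (ratio 6.72 (6.25 to 7.23)), were higher in set 2 and low in set 3. As a mean over cells the ratio of *Ptgfr* was 10.7 and that of *Ptgs2* 303, and the ranges were 2.97 to 20.5 and 204 to 1359.6. *Slco2a1*, the prostaglandin transporter, had a ratio of 2.199 (range 2.06 to 3.52). The other 7 were not called, among them *Hpgd* (0.5504), which breaks prostaglandins down.

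In the cumulus matrix list, 4 of 8 genes tested were higher and none lower, against 5.7% and 17.6% of all genes. Of the higher genes, *Tnfaip6*, *Ptx3* and *Has2* passed the filter mainly through their UMIs in set 2. *Tnfaip6*, given above, had the highest ratio of them. *Ptx3*, at 0.00545, 0.518 and 1.34 UMIs per 10000 in sets 1, 2 and 3 (ratio 95.1 (59.99 to 161)), encodes a matrix pentraxin, and *Has2*, at 0.00333, 0.109 and 0.0712 (ratio 32.8 (18.1 to 66.3)), the hyaluronan synthase. *Vcan*, which encodes versican, was at 3.998, 8.67 and 26.2 (ratio 2.17 (2.12 to 2.21)). *Tnfaip6* was higher in set 2 than in set 3, and *Ptx3* and *Vcan* were highest in set 3. The ratio of *Ptx3* was 52.9 as a mean over cells, with a range of 45.04 to 307, and that of *Has2* had a range of 15.3 to 40.8.

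Of 11 genes tested for progesterone synthesis 3 were higher and 1 lower, and of 6 for estradiol 2 were higher and 1 lower, against 5.7% and 17.6% of all genes. *Fdx1*, the ferredoxin that passes electrons to mitochondrial steroid enzymes, was at 5.001, 43.7 and 11.1 UMIs per 10000 in sets 1, 2 and 3 (ratio 8.74 (8.596 to 8.88)), the highest set 2 level of any higher gene named here. *Star*, which brings cholesterol into mitochondria, was at 0.224, 4.61 and 7.82 (ratio 20.6 (19.1 to 22.2)), and *Por*, the reductase of microsomal P450 enzymes, at 0.323, 0.8295 and 0.655 (ratio 2.57 (2.39 to 2.76)). The ratio of *Star* was 38.2 as a mean over cells and ran from 8.31 to 69.4, and that of *Fdx1* from 5.502 to 15.9. The steroid enzyme genes *Cyp11a1*, at 10.6, 7.901 and 11.3 (ratio 0.745), and *Hsd3b1*, at 30.8, 23.9 and 11.4 (0.778), were not called. These ratios are near that of the median gene, but both lay below the lower quartile of genes of like level. The lower quartile of log2 ratios was -0.22 for genes at 3 to 10 UMIs per 10000 and 0.07 at 10 to 30. *Fdxr*, the reductase partner of *Fdx1*, was at 1.34, 0.714 and 2.06 (0.533), and *Srd5a1*, the 5 alpha-reductase, was lower (0.324). *Cyp19a1*, the aromatase gene, was at 2.12, 5.04 and 0.0827 (ratio 2.38 (2.31 to 2.44)), so it was higher in set 2 and almost absent in set 3. *Hsd17b1* (0.735) and *Esr2* (0.527) were not called, and *Esr1* (0.473) was lower but not after centring. *Sult1e1*, counted with the estradiol genes because it inactivates estrogen, was the other higher gene of that list.

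In the cholesterol supply list *Scarb1*, the receptor for high-density lipoprotein, was at 1.22, 3.61 and 2.32 (ratio 2.97 (2.87 to 3.08)) and was the 1 higher gene of 15, against 5.7% of all genes. *Fdft1* (0.4304), *Lss* (0.462) and *Mvd* (0.478) of sterol synthesis and the lipase gene *Lipe* (0.413) were lower, against 17.6% of all genes, and none of these 4 lower calls was left after centring. The ranges were 1.91 to 4.703 for *Scarb1*, 0.244 to 0.595 for *Lss*, 0.258 to 0.5202 for *Mvd* and 0.257 to 0.491 for *Lipe*.

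The gonadotropin and prolactin receptor genes were not called. *Lhcgr* was at 2.04, 1.02 and 0.301 UMIs per 10000 in sets 1, 2 and 3 (ratio 0.501 (0.481 to 0.522)), right at the limit, *Fshr* at 0.915, 0.623 and 0.2996 (ratio 0.681 (0.644 to 0.721)) and *Prlr* at 4.53, 2.55 and 4.41 (ratio 0.564 (0.549 to 0.579)). Relative to the median gene these ratios were 0.685, 0.932 and 0.771. Against genes of like level, the log2 ratios of *Lhcgr* (-0.997) and *Prlr* (-0.826) lay below the lower quartile. That of *Fshr* (-0.553) did not. The lower quartiles were -0.44 at 1 to 3 UMIs per 10000, -0.22 at 3 to 10 and -0.66 at 0.3 to 1.

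Of 17 tested genes of the inhibin, activin and AMH system, 2 were higher and none lower, against 5.7% and 17.6% of all genes, and both had an interval that spans the 2-fold limit. *Smad7*, an inhibitory Smad, was at 1.16, 2.404 and 0.903 (ratio 2.07 (1.99 to 2.15)) and the receptor gene *Tgfbr1* at 0.980003, 2.02 and 0.994 (ratio 2.06 (1.98 to 2.15)). *Inhba* (1.16), *Fst* (1.48), which binds activin, *Inhbb* (0.672) and *Amh* (1.09) were not called. In set 3, *Inhba* was at 2.35 and *Inhbb* at 0.649 UMIs per 10000, against 30.8 and 35.7 and 8.41 and 5.65 in sets 1 and 2. *Nppc*, whose peptide holds the oocyte in meiosis, was at 4.04, 2.35 and 0.115 (ratio 0.583 (0.567 to 0.5997)) and was not called. The clearance receptor gene *Npr3* had 27 UMIs in set 1 and 758 in set 2 (ratio 27.9 (19.02 to 42.6), range 13.4 to 65.7).

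Among 14 tested transcription factors of GCs, 3 were lower and 1 was higher, near the shares of all genes without centring (17.6% and 5.7%). After centring 3 were lower, against 5.7% of all genes, and 2 were higher, against 9.38%. Besides *Foxo1*, *Foxl2*, which keeps GCs from testis fate, was at 2.697, 0.956 and 0.891 UMIs per 10000 in sets 1, 2 and 3 (ratio 0.354 (0.3403 to 0.369)), and *Nr0b1*, which encodes the corepressor DAX1, at 0.184, 0.0535 and 0.0168 (ratio 0.291 (0.245 to 0.344)). *Zeb2*, a zinc finger repressor, was at 2.26, 7.84 and 1.76 (ratio 3.47 (3.38 to 3.56)), and *Foxo3* (1.46) passed the limit only after centring. *Nr5a2* (1.14), *Gata4* (0.836), *Sox4* (1.14) and *Tox2* (1.06) were not called.

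Of 10 genes of the IGF system tested 1 was higher and 1 lower, against 5.7% and 17.6% of all genes, with a median log2 ratio of -0.10. *Irs1*, a docking protein of the insulin and IGF1 receptors, was lower, at 0.627, 0.156 and 0.105 (ratio 0.248 (0.225 to 0.273)), and *Irs2* (1.496), *Insr* (1.23) and *Igf1r* (1.73) were not called. *Pappa*, a protease of IGF-binding proteins, was higher (2.42). After centring 3 of the 10 were higher, *Pappa*, *Igf1r* and *Irs2*, and 1 was lower, against 9.38% and 5.7% of all genes. *Pik3ip1*, an inhibitor of PI3-kinase counted with the genes of atresia, was lower, at 0.6797, 0.279 and 0.2798 (ratio 0.411 (0.38002 to 0.444)).

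Of 13 WNT and Notch genes tested 5 were higher without centring, all of them Notch genes, and 1 WNT gene was lower, against 5.7% and 17.6% of all genes. *Heyl*, a Notch target, was at 0.0645, 0.7095 and 0.197 UMIs per 10000 in sets 1, 2 and 3 (ratio 11.003 (9.56 to 12.7)), *Hey1* at 0.0266, 0.2099 and 0.0343 (ratio 7.88 (6.31 to 9.95)) and *Hes1* at 0.526, 1.36 and 0.746 (ratio 2.59 (2.45 to 2.74)). The ligand gene *Jag1* (5.16, range 3.44 to 8.86) and the receptor gene *Notch3* (2.12) were higher and *Notch2* (0.942) was not called. *Wnt5a* was lower (0.334), and *Wnt4* (1.75), *Fzd1* (1.83), *Axin2* (0.793) and *Ctnnb1* (0.878) were not called. After centring 8 of the 13 were higher, with *Wnt4*, *Fzd1* and *Sfrp4* (1.97) added to the Notch genes, and 1 was lower. The centred shares of all genes were 9.38% and 5.7%. *Rgs5* and *Tagln*, markers of vascular mural cells in which *Notch3* and *Heyl* are also expressed, were higher in GCs as well, with ratios of 3.06 and 2.22 from 0.0436 and 0.283 UMIs per 10000. The endothelial markers *Kdr* (3.12) and *Cldn5* (2.54) were higher from 0.0148 and 0.0224, and *Jag1* and *Hey1* are expressed in endothelium as well. The part of these cells was not tested. The Hedgehog ligand genes were not called, *Ihh* with a ratio of 1.86 and *Dhh* with 0.536.

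None of 18 cell cycle promoting genes was called, and 16 had a ratio below 1, as did 77.4% of all genes tested, with a median log2 ratio of -0.62 (-0.17 after centring). *Pcna* had the highest ratio of the list (1.59) and was the 1 member higher after centring, against 9.38% of all genes. *Mki67* was at 0.698, 0.391 and 0.509 UMIs per 10000 in sets 1, 2 and 3 and *Birc5* at 1.34, 0.719 and 1.14. Cells with at least 1 UMI of *Mki67*, *Top2a*, *Ccnb1*, *Cdk1* or *Birc5* made up 38.3% of GCs in set 1, 30.9% in set 2 and 42.5% in set 3, at the depths above. Of 12 tested genes of atresia and apoptosis, *Mcl1* (2.11) was higher and *Bcl2l1* (0.443) and *Pik3ip1* were lower, both lower calls being lost on centring, and these counts were near the 5.7% and 17.6% of all genes.

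Glycogen metabolism, which the title of the series names, had 1 higher and 3 lower of 24 genes tested, no more than the 5.7% and 17.6% of all genes, and a median log2 ratio of -0.45, that of all genes. *Ppp1r3b*, which targets protein phosphatase 1 to glycogen, was at 0.05904, 0.128 and 0.0366 UMIs per 10000 in sets 1, 2 and 3 (ratio 2.16 (1.82 to 2.57)). *Stbd1*, a glycogen-binding protein, was at 0.157, 0.0641 and 0.0351 (ratio 0.408 (0.346 to 0.479)) and *Nhlrc1*, the ubiquitin ligase malin, at 0.0348, 0.0126 and 0.0306 (ratio 0.363, range 0.234 to 0.371), and 1 of the 3 lower calls was left after centring. *Gys1* (0.526), *Gbe1* (0.977) and *Pygl* (1.05), the enzymes that build and break glycogen, were not called. Of 22 genes of glycolysis and glucose uptake 3 were higher and none lower (5.7% and 17.6% of all genes). *Hk2*, hexokinase 2, was at 0.265, 0.648 and 0.504 (ratio 2.45 (2.26 to 2.65)), and *Pfkfb2* (3.81) and *Pfkfb3* (2.56) encode enzymes that set the activator of phosphofructokinase. *Hk1* (0.679), *Pfkl* (0.593), *Pfkm* (0.568), *Pfkfb4* (0.595) and *Pdk1* (0.6796) were not called.

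The counts that follow stand against 5.7% higher and 17.6% lower of all genes. Among proteases and their inhibitors 4 of 14 were higher, *Adamts4* (7.79, range 5.19 to 19.2), *Adamts9* (3.85), *Plat* (3.21) and *Plau* (3.16), the last 2 encoding plasminogen activators, and *Adamts5* was lower (0.4602), though not after centring. *Vegfa*, the angiogenic growth factor, was at 0.295, 0.725 and 0.384 UMIs per 10000 in sets 1, 2 and 3 (ratio 2.46 (2.28 to 2.65)), and *Fgf2* (2.502) was the other higher gene of 10 angiogenesis factors. *Apln* was called lower (0.497 (0.329 to 0.739)) with 78 and 39 UMIs and a range of 0.326 to 1.26. In the list of cytokines, where 5 of 13 genes could be tested, *Cxcl2* (5.105, range 5.103 to 7.94) and *Cxcl10* (2.43, range 1.598 to 4.55) were higher, and so were the immune markers *Cd3e* and *C1qa*, whose part was not tested. In the 11 tested genes of cytoskeleton and adhesion 1 was called, *Gja4* (2.097, range 1.82 to 4.65 with the highest value as a mean over cells), a gene also expressed in endothelium, whose markers *Kdr* and *Cldn5* were higher too, and the gap junction gene *Gja1* was at 22.6, 21.3 and 5.55. Of 3 luteal markers *Ptgfr* was the 1 higher, and of 5 nuclear RNAs *Neat1* (2.38) was, with *Malat1* at 1.06.

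The higher genes differed in the share of cells with a UMI. After thinning to 3000 UMIs, *Pde10a* had a UMI in 82.7% (81.5 to 83.8%) of GCs of set 2 and in 2.54% of those of set 1, and *Fdx1* in 88.8% (87.7 to 89.7%) and 49.1%. *F3* had a UMI in 66.2% (64.8 to 67.7%), *Crem* in 59.9% (58.3 to 61.4%), *Tnfaip6* in 51.7% (50.1 to 53.2%), *Areg* in 47.2% (45.7 to 48.8%) and *Ereg* in 46.5% (44.9 to 48.1%) of set 2 cells. Without thinning, *Areg* was found in 57.6% and *Pde10a* in 85.7% of set 2 cells. As a measure of background, the thinned shares in set 2 cells of the *Pecam1* gate were 12.8% for *Areg*, 12.5% for *Ereg*, 9.12% for *Tnfaip6*, 8.77% for *F3*, 24.7% for *Pde10a*, 20.4% for *Crem* and 53.3% for *Fdx1*, at a median depth of 5741 UMIs. The shares in GCs lay above these. Among the other gates, the *Pecam1* gate had the lowest level of *Areg* in set 2, as given below, so these shares set no upper limit to the background. For *Fdx1* the share in the *Pecam1* gate was 22.8% in set 1. *Ptgs2* had a UMI in 16.7% (15.6 to 17.9%) of GCs, *Btc* in 16.8% (15.7 to 17.998%), *Sult1e1* in 12.96% (11.9 to 14.04%) and *Nts* in 8.12% (7.29 to 9.005%), against 1.93%, 0.702%, 1.23% and 2.46% in the *Pecam1* gate. Among the lower genes, *Foxo1* had a UMI in 76.3% (74.9 to 77.6%) of cells in set 1 and 33.96% (32.5 to 35.4%) in set 2, and *Foxl2* in 45.9% and 19.8%.

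**Figure D4:**
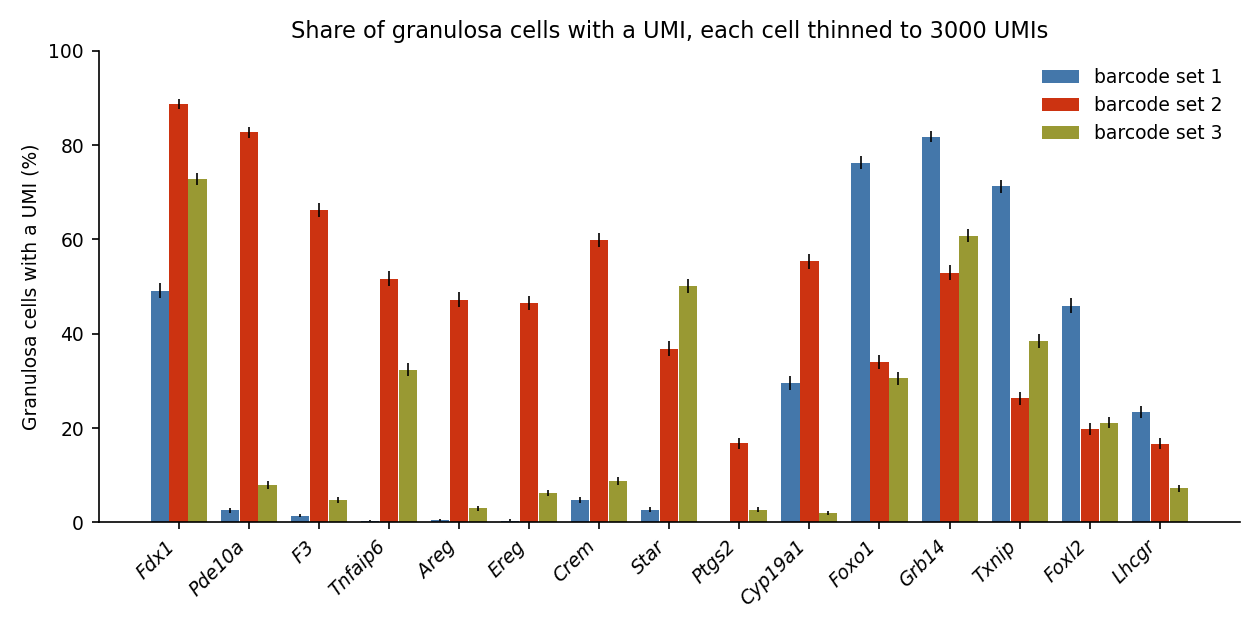
Bars give the percentage of GCs with at least 1 UMI of a gene in barcode sets 1, 2 and 3 after every cell was thinned to 3000 UMIs, with exact 95% binomial intervals as error bars. *Pde10a* is found in 2.54%, 82.7% and 7.87% of cells in sets 1, 2 and 3, and *Foxo1* in 76.3%, 33.96% and 30.5%.

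Within set 2 the UMIs of some genes came from few cells. The 5% of GCs with the most *Nts* held 94.99% of its UMIs, against 71.4% for *Sult1e1*, 37.8% for *Areg* and 17.8% for *Pde10a*. A level of *Areg* of 0 was found in 1840 GCs of set 2 (42.4%), and at least 5 UMIs in 1401 (32.3%). The latter, with a median depth of 7135 UMIs against 6148.5, had *Ereg* at 22.2 UMIs per 10000, *Fdx1* at 73.2, *Inhba* at 60.7 and *Foxo1* at 0.996, against 3.31, 21.2, 16.5 and 2.64 in the cells without *Areg*. The 215 cells with at least 5 UMIs of *Nts* (4.95%) had *Areg* at 25.8 and *Inhba* at 63.5. The 620 cells without *Pde10a* (14.3%) had *Inhba* at 2.95 and *Kctd14*, another GC marker, at 1.92, against 45.3 and 0.0636 in the 3111 cells (71.6%) with at least 5 UMIs of *Pde10a*.

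Because *Inhba* marks GCs of larger follicles, all GCs were also split at 10 UMIs of *Inhba* per 10000 of the cell, a limit chosen after the values had been seen. In the upper part were 2085 cells of set 1 (49.1%) and 2598 of set 2 (59.8%), and 240 of set 3 (4.64%), so the sets differed in their makeup by this gene. *Areg* was at 0.0246 and 19.1 UMIs per 10000 in sets 1 and 2 in the upper part (ratio 779 (572 to 1090.5)) and at 0.0155 and 1.77 in the lower (ratio 114 (77.8 to 175)). *Pde10a* was at 0.0774 and 19.3 (ratio 249.9 (209.8 to 300.1)) and at 0.104 and 12.03 (ratio 116 (99.7 to 135)). *Fdx1* was at 3.47 and 61.4 in the upper part (ratio 17.7 (17.3 to 18.2)) and at 6.49 and 17.7 in the lower (ratio 2.72 (2.66 to 2.79)). *Pgr* was at 0.0203 and 1.43 (ratio 70.4 (50.01 to 102)) and at 0.0269 and 0.0942 (ratio 3.51 (2.48 to 5.04)). *Ptgfr* was called in the upper part, with a ratio of 16.8 (14.7 to 19.2), and not in the lower, with 1.78 (1.61 to 1.98). *Cyp19a1* showed the opposite, with 4.21 and 7.73 UMIs per 10000 in the upper part (ratio 1.83 (1.78 to 1.89)) and 0.0865 and 1.097 in the lower (ratio 12.7 (10.7 to 15.1)). Among the lower genes, *Foxo1* was at 6.69 and 1.34 in the upper part (ratio 0.19997 (0.192 to 0.209)) and at 5.98 and 2.79 in the lower (ratio 0.467 (0.4498 to 0.485)). *Foxl2* was called in the upper part alone, with a ratio of 0.164 (0.155 to 0.175) against 0.924 (0.871 to 0.981). Without replicates the differences between the parts were not tested.

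**Figure D5:**
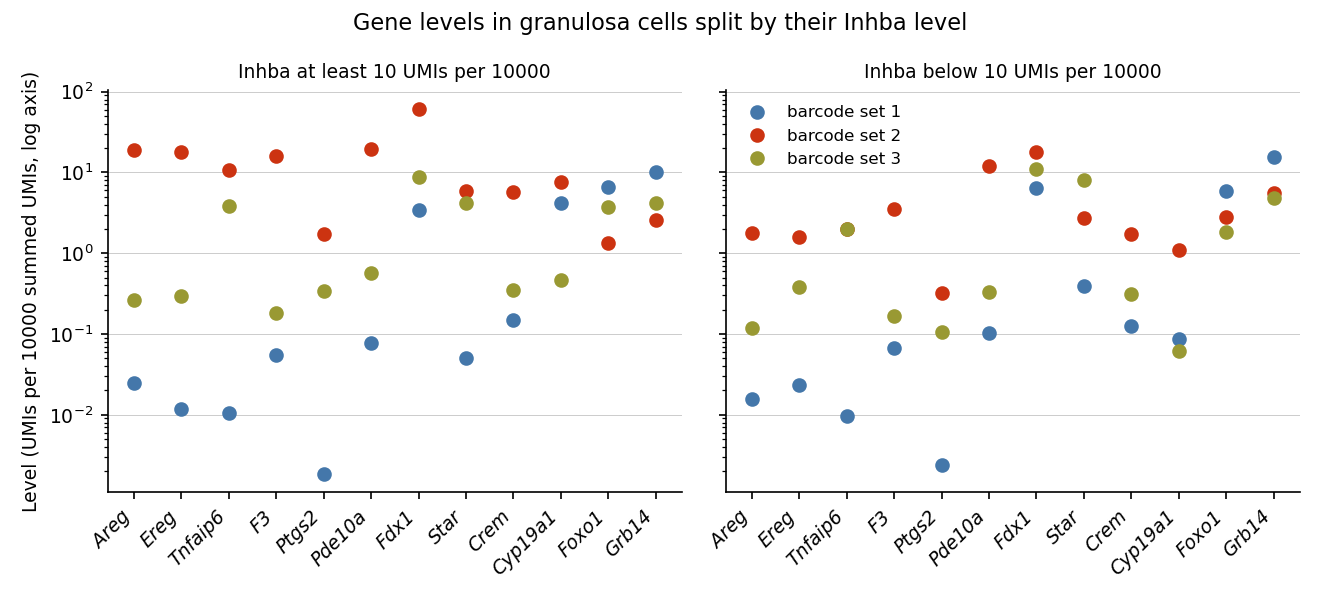
Points give the level of 12 genes, in UMIs per 10000 summed UMIs on a log axis, in GCs with at least 10 UMIs of *Inhba* per 10000 (left) and with fewer (right), for barcode sets 1, 2 and 3; a point is left out where no UMI was found. *Areg* in set 2 is at 19.1 on the left and 1.77 on the right, and set 1 lies below 0.03 in both.

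The same genes were looked at in other gated cells, at 0.0128 and 2.602 UMIs per 10000 for *Areg* in sets 1 and 2 in the *Dcn* gate, 0.103 and 12.8 in the *Cyp17a1* gate (354 and 161 cells) and 0.00246 and 0.437 in the *Pecam1* gate. *Areg* in set 2 was thus about as high in the *Cyp17a1* gate as in GCs. *Fdx1* was at 1.42 and 4.61 in the *Dcn* gate, 20.3 and 76.5 in the *Cyp17a1* gate and 3.998 and 4.005 in the *Pecam1* gate. *Star* was at 1.296 and 25.8 in the *Cyp17a1* gate of sets 1 and 2. *Junb* had a ratio of 3.57 in GCs and 1.07, 1.73 and 1.15 in the *Dcn*, *Cyp17a1* and *Pecam1* gates, and *Zeb2* one of 3.47 in GCs and 0.662 in the *Dcn* gate. *Foxo1* had ratios of 0.305, 0.877, 0.383 and 0.763 in the same order, and *Txnip* of 0.302, 0.688, 0.216 and 0.611. Over all genes tested in each gate, 5.7% were higher and 17.6% lower in GCs, 2.05% and 3.59% in the *Dcn* gate, 4.98% and 15.8% in the *Cyp17a1* gate and 0.982% and 1.23% in the *Pecam1* gate. Numbers of cells differ between the gates, free RNA and doublets can carry GC transcripts into each, and the differences between gates were not tested.

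At the limit of the gate, cells just inside it (a value of 2 to 2.25 for *Inha*, 225 cells of set 1 and 214 of set 2) had *Areg* at 0.0343 and 1.70 UMIs per 10000 and *Pde10a* at 0.150 and 9.46 in sets 1 and 2. Cells just outside it (1.75 to 2, 254 and 238 cells) had *Areg* at 0.0120 and 1.98 and *Pde10a* at 0.120 and 8.32.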

How the data were processed

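The authors deposited 1 table for 3 10x Genomics libraries of mouse ovary, holding for each of 31776 cells and 24958 genes the natural log of 1 plus UMIs per 10000 UMIs of the cell. The submitters' processing notes name Cell Ranger, Seurat and the mm10 build, with no versions, and filters on cells, the gene annotation and doublet removal are not given in the sources used here. The deposited values were turned back into UMIs, which gave whole numbers, to within 0.01 UMI, for 100% of the 80167176 nonzero entries (500 to 133658 UMIs per cell). Barcode endings could not be mapped to libraries, so the sets were compared as they stand, with no test, since each is 1 library. UMIs of the gated cells were summed per set, and ratios were given with exact conditional (Clopper-Pearson) 95% intervals. These cover counting error only, which is small beside what 2 libraries can differ by, so a narrow interval says nothing about a replicate. A ratio of 2 or more, or of 0.5 or less, was called, among genes with at least 100 UMIs over both sets. With a count of 0, a floor of 3 counts was used. Doublets were not removed, and leaving out the 10% of cells with the most UMIs was tried as an alternative. The gate and the contrast define the comparison, and the gate genes are no result. Members and gene lists were chosen with earlier results of these data known. Named genes are the 15 of highest and the 15 of lowest ratio among called genes with at least 1 UMI per 10000 in the higher set, and members of 40 gene lists, of which 4 genes have no row. Some list members are counted with their list and not reported here by name. Promoter windows come from RefSeq (GRCm38.p6) and loci from GENCODE M21. Symbols were matched between table and references, and *Ereg*, *Crem*, *Osgin2*, *Gm13889*, *1110032F04Rik* and *Adck5* had no window. Python 3.11.15, numpy 2.4.6, scipy 1.17.1, pandas 2.3.3 and matplotlib 3.10.9 were used, and the ratio step was tested on simulated data. Alternatives covered the level, scaling, gate, depth, doublets, mitotic cells, shared barcodes, filters and fold.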

Additional observations from a re-analysis of the deposited data

How the results depend on the processing

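With 1 library in each set, no alternative shows how replicates would vary, and the genes of lowest level rest on few UMIs. No paired analysis was possible because each set is 1 library, so only 1 pair could be formed. Against 699 higher and 2154 lower genes, the counts of higher and lower genes were 1149 and 698 with a median-of-ratios size factor, 441 and 1158 with at least 500 summed UMIs, 2722 and 4902 with at least 1 UMI, and 276 and 158 at 4-fold. With intervals wholly beyond 2-fold the lower count was 1149. Of the alternatives chosen after the data had been seen, cells with *Inhba* of at least 10 UMIs per 10000 gave 3305 lower genes, those below 10 gave 349 and 540, and centring on genes of like level gave 1219 and 487. The other alternatives, namely the mean over cells, totals without the 50 genes of most UMIs, the gate at *Inha* of 1 or 3, thinning, and leaving out the deepest 10% of cells, mitotic cells or shared barcodes, kept both counts within 1.5 times. Of the 137 genes called among 378 named genes, *Apln* turned direction at the gate of *Inha* of 3 or more (ratio 1.26) and *Mvd* in cells of *Inhba* below 10 (1.04), and 82 genes not called, whose ratios lay nearer to 1, were on the other side of 1 in at least 1 setting other than centring. The ratio of a called gene moved by over 1.5 times for 12 genes as a mean over cells, 25 at the gate of 3 or more, 17 at that of 1 or more, 13 with thinning, 15 without the deepest cells and 2 without mitotic cells, and for 54 and 76 in cells of *Inhba* of at least 10 and below 10 and 28 when centred on genes of like level, leaving out ratios against a count of 0. In the last 3 settings 9, 33 and 19 of the calls were lost, with a median-of-ratios size factor 16, and at the gate of 1 or more 19. The causes of these changes were not tested, except that other filters and folds change which genes can be called.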
